A study of Mus musculus with 12 samples.

Results

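Axon guidance was represented by 10 genes of the families known in endothelium, which were followed through 12 RNA-seq libraries of sorted glomerular endothelial cells (GEC): the ephrins Efnb1, Efnb2 and Efna1, the Eph receptor Ephb4, the semaphorins Sema3g and Sema6a, the plexins Plxnd1 and Plxna2, and the receptors Robo4 and Unc5b. They were picked by name, with earlier results of these data known. All 10 were listed both among the 17811 genes of the dimtdT table and among the 17521 genes of the brighttdT table, which had 15768 genes in common. The study asked how GEC differ between wild type (WT) mice and mice with Alport syndrome (AS), a hereditary kidney disease caused by loss of a collagen IV chain. Cells were sorted by FACS from sieved and digested glomeruli according to the brightness of a tdTomato (tdT) reporter. The 4 groups of 3 libraries were WT-dimtdT, AS-dimtdT, WT-brighttdT and AS-brighttdT. Mice of both genotypes were C57BL/6, 4 months old and sex-matched, and carried the TekCre tdTomato reporter, a Cre driven by the endothelial Tek promoter with the tdTomato reporter that it switches on. WT mice were wild type at Col4a5, and AS mice were Col4a5 knockouts. Each of the 6 mice gave 1 dim and 1 bright library.

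Axon guidance molecules were first described in nerve growth cones and are also used by vessels. Ephrins are membrane-bound ligands that signal through Eph receptors on neighbouring cells and back into the cell that carries them, semaphorins signal through plexins, often with neuropilins, and slits and netrins signal through Robo and Unc5 receptors. In endothelium these pairs are known for setting artery and vein identity, for vessel branching and for barrier function.

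The libraries held 11440169 to 15074909 counts on genes. Col4a5, the targeted gene, had 771, 439 and 877 counts in WT-dimtdT replicates 1 to 3 and 51, 24 and 17 in AS-dimtdT, so that the genotypes were separate there. The bright groups overlapped (WT-brighttdT 158, 69 and 78 counts, AS-brighttdT 43, 104 and 55), and Col4a5 did not check the genotype of those libraries. The labelled cell type was checked with summed CPM, the counts scaled to library size, of marker lists. The 14 endothelial markers, among them Pecam1, Cdh5, Kdr and Ehd3, summed to 10974 to 19187 CPM in the 6 bright libraries, to 758 to 1385 CPM in WT-dimtdT and to 234 to 322 CPM in AS-dimtdT. Of 18 leukocyte markers, 13 were in both tables. They summed to 64.0 to 175 CPM in the bright libraries, to 9512 to 16348 CPM in WT-dimtdT and to 17908 to 20870 CPM in AS-dimtdT, so that in every dim library they exceeded the endothelial markers. The dim libraries are therefore called by their sort gate below. No endothelial marker was at 0 in any library, and the lowest was Sox17 with 6 counts in 1 dim library. The 13 proximal tubule markers ranged from 1540 to 6716 CPM in WT-dimtdT and from 29.3 to 439.6 CPM in AS-dimtdT. The 6 podocyte markers ranged from 466 to 1068 and from 412 to 461 CPM in the same groups, and the 8 mesangial and mural markers in both tables from 122 to 215 and from 61.5 to 110.3 CPM.

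**Figure D1:**
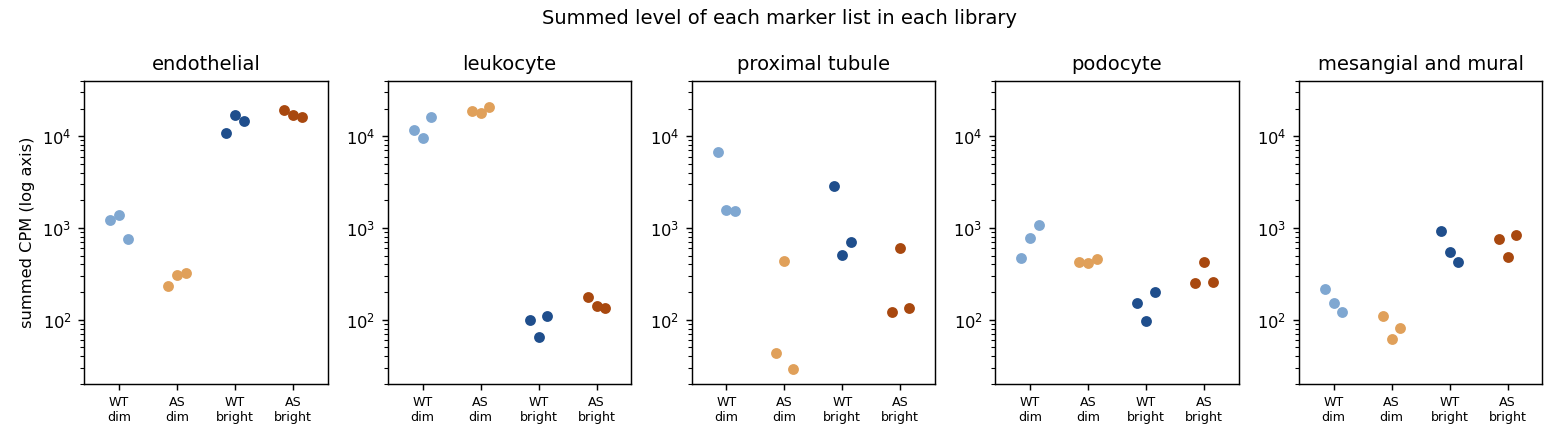
Summed level of each marker list (y axis, CPM on a log scale) in each library (points) of the 4 groups (x axis). The endothelial sum is highest in the 6 bright libraries (10974 to 19187 CPM) and lowest in AS-dimtdT (234 to 322 CPM), while the leukocyte sum is at least 9512 CPM in each dim library and at most 175 CPM in each bright one.

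The promoters shown belong to the ligand and receptor pair Efnb2 and Ephb4, to Unc5b, the one gene whose window held CCGGAA, and to Plxnd1, whose values differed most from those of the other 9. Each run is the 250 bases before the RefSeq start (GRCm38.p6), 5′ to 3′ on the strand of the gene. Capitals mark GGGCGG, the core of a GC box, or CCGGAA, or the reverse complement of either. Efnb2 lies on the minus strand of chromosome 8 and its window at chr8:8661243-8661492, Ephb4 on the plus strand at chr5:137349859-137350108, Plxnd1 on the minus strand at chr6:115995006-115995255 and Unc5b on the minus strand at chr10:60831582-60831831.
Efnb2: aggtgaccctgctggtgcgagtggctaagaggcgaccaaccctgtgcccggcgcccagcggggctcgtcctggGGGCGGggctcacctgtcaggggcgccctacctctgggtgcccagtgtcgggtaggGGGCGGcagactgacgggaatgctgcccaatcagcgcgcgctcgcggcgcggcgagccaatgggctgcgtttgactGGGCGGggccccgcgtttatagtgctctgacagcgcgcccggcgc
Ephb4: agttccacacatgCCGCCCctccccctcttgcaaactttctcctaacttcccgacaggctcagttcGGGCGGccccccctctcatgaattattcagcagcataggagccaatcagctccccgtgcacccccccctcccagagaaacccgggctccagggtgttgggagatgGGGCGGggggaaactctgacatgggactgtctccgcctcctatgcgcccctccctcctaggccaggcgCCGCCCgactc
Plxnd1: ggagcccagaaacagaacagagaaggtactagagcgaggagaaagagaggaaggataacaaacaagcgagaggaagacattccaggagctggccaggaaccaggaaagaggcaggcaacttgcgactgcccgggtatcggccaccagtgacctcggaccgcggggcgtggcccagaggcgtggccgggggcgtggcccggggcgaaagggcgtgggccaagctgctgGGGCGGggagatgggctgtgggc
Unc5b: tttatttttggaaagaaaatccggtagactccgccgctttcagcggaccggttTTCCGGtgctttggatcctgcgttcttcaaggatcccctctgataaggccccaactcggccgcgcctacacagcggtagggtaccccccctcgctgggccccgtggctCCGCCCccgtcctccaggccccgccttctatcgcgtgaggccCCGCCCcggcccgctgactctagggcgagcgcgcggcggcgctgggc
Of the 10 genes 9 had a window, Efna1 had 2, and Sema6a had none. GGGCGG was found on either strand in 8 of the 10 windows and in 32.7% of the 32851 promoter windows of this length. Efnb2 held it at 3 places, Ephb4 at 4, Unc5b at 2 and Plxnd1 at 1, and the windows of Robo4 and Efnb1 did not hold it. CCGGAA, a form of the site known for ETS factors, was in 1 of the 10 windows, that of Unc5b, and in 12% of all windows. None of the 10 windows held AGATAA, a core known for GATA factors (9.99% of all windows), and none held the forkhead core TGTTTAC (3.17%). The sequence TATAAA was in the window of Efnb2 alone, beside 12.4% of all windows. The windows of the 10 ranged in GC content from 49.6% in Robo4 to 72% in Efnb2.

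All 10 genes are protein coding. In Gencode M21 (GRCm38) Efnb1 lies at chrX:99136130-99148991, Efnb2 at chr8:8617434-8661242, Efna1 at chr3:89271733-89281142, Sema3g at chr14:31217860-31230352 and Unc5b at chr10:60762593-60831581. Robo4 spans chr9:37401897-37415115, Ephb4 chr5:137350109-137378669, Plxnd1 chr6:115954811-115995005 and Plxna2 chr1:194618218-194816869. Ephb4 overlaps Zan on the other strand, and Efnb2, Plxna2 and Unc5b overlap same-strand transcripts with no coding annotation. The counts of these 4 loci could therefore be affected by a neighbour. The strand setting of the counting was not given in the sources used here.

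Plxnd1 had the highest level per length in every group and Efnb1 the second highest. On the scale of CPM per kilobase of merged exons, Plxnd1 stood at 262 ± 98.9 (SD, n = 3) in WT-brighttdT, Efnb1 at 166 ± 41.7, Efna1 at 96.6 ± 29.1, Efnb2 at 73.1 ± 24.5, Robo4 at 53.6 ± 9.87 and Ephb4 at 34.5 ± 8.45. Sema6a (20.4 ± 7.50), Plxna2 (13.2 ± 3.69), Sema3g (10.9 ± 2.84) and Unc5b (8.13 ± 2.74) were lowest. Along that order the ranges of the libraries were separate only between Efnb1 and Efna1 and between Robo4 and Ephb4. In AS-brighttdT the first 7 places were the same, and the last 3 were Unc5b, Plxna2 and Sema3g, all with ranges that overlapped the next. In WT-dimtdT the levels per kilobase ran from 66.5 ± 22.5 for Plxnd1 and 52.8 ± 10.8 for Efnb1 down to 0.830 ± 0.135 for Unc5b, and Sema3g (6.13 ± 2.25) stood level with Efnb2 (6.14 ± 1.32). In AS-dimtdT Plxnd1 (110.0 ± 6.00) was far above Efnb1 (14.2 ± 2.79), and the other 8 lay between 0.173 ± 0.0151 (Plxna2) and 1.83 ± 0.266 (Efnb2). With the gene length that the files give, which adds up the exons of all transcripts, Plxnd1 and Efnb1 were first and second in every group as well, but genes with many transcripts such as Robo4, Ephb4 and Sema6a came out lower.

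**Figure D2:**
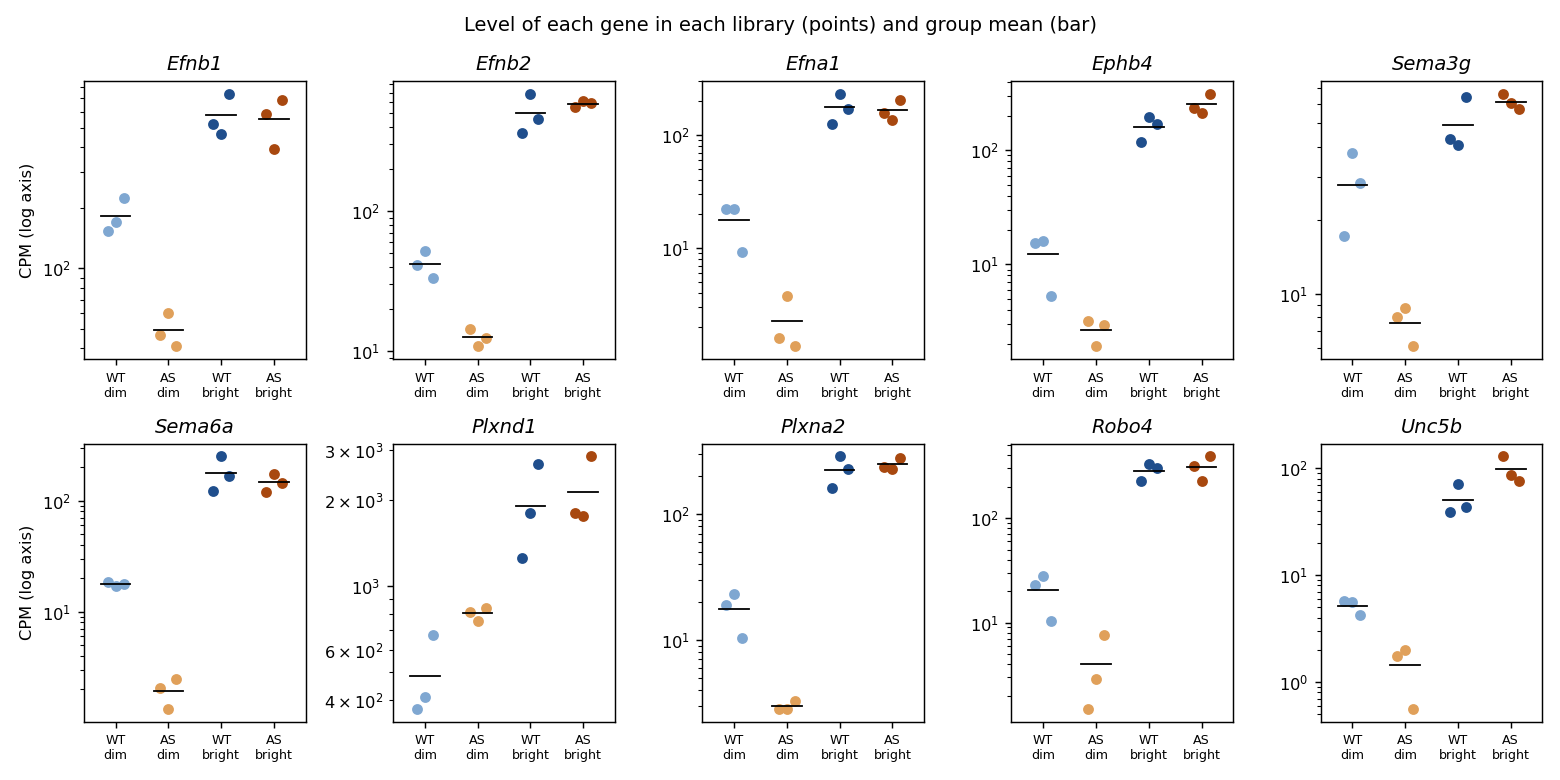
CPM of each gene (y axis, log scale, 1 panel per gene) in each library (points, replicates 1 to 3 from left to right) of the 4 groups (x axis), with the group mean as a bar. In 9 panels the AS-dimtdT points are the lowest, and in the panel of Plxnd1 they lie at 755 to 840.2 CPM, above the 372 to 674 CPM of WT-dimtdT.

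In the dim libraries 7 of the 10 genes fell in AS over WT: Efnb1, Efnb2, Efna1, Ephb4, Sema3g, Sema6a and Plxna2, by 3.42-fold to 9.21-fold. No gene rose. Robo4 and Unc5b had log2 fold changes of the same sign that did not pass by edgeR. Both passed by DESeq2 (adjusted p = 0.00387 and 0.0370) and with all 12 libraries in one edgeR fit (adjusted p = 0.00853 and 0.0236), so that 9 of the 10 genes fell in each of these alternatives, beside 10.7% and 10.4% of all genes. Plxnd1 was the one gene with a higher mean in AS. Of all 14637 genes tested in this comparison, 6.42% passed as lower and 8.63% in either direction. The median log2 fold change was -2.07 over the 10 genes and -0.02 over all genes tested. In each of the 10 genes the 3 AS-dimtdT libraries did not overlap the 3 WT-dimtdT libraries, as was the case in 31.6% of all genes tested. In a bulk library, fewer cells of a type and less RNA per cell cannot be told apart.

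Efnb1, the transmembrane ligand ephrin-B1, had 153, 169.8 and 224 CPM in WT-dimtdT and 46.7, 59.8 and 40.9 CPM in AS-dimtdT. The AS libraries were all lower, and the log2 fold change was -1.92 (SE 0.24, adjusted p = 0.0149). Efnb2 encodes ephrin-B2, a marker of arterial endothelium and the partner of Ephb4. It had 41.0, 51.6 and 33.6 CPM in WT-dimtdT and 14.5, 10.9 and 12.4 CPM in AS-dimtdT, a log2 fold change of -1.77 (SE 0.29, adjusted p = 0.0206). Both B-type ephrins were thus lower by about the same factor. Efna1, the ligand ephrin-A1 that is held by a lipid anchor, had 22.4, 22.1 and 9.27 CPM in WT-dimtdT and 1.63, 3.81 and 1.36 CPM in AS-dimtdT. WT-dimtdT replicate 3 was the low library of its group and still above the AS libraries, and the log2 fold change was -3.03 (SE 0.57, adjusted p = 0.0241). Ephb4, the receptor of ephrin-B2 known from veins, had 15.5, 16.1 and 5.23 CPM in WT-dimtdT and 3.18, 1.91 and 2.95 CPM in AS-dimtdT. Its log2 fold change of -2.21 (SE 0.56) passed only narrowly by edgeR (adjusted p = 0.0494) and in 4 of 15 alternatives, among them DESeq2 (adjusted p = 0.00192). It missed with library sizes alone (adjusted p = 0.0573), with every gene that had a count (0.0568), with the fit of edgeR version 3 (0.0654), with the replicate block (0.0908), with both marker covariates and in 5 of the 6 fits with 1 library left out.

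Sema3g, a secreted class 3 semaphorin known from arterial endothelium, had 17.3, 37.7 and 28.6 CPM in WT-dimtdT and 7.99, 8.70 and 6.07 CPM in AS-dimtdT. The AS libraries lay close together below the WT ones, with a log2 fold change of -1.91 (SE 0.38, adjusted p = 0.027). Sema6a, a transmembrane semaphorin that binds plexin-A2 and plexin-A4, had 18.5, 17.0 and 17.6 CPM in WT-dimtdT and 2.05, 1.33 and 2.47 CPM in AS-dimtdT. It had the tightest WT group and the largest change of the 10 (log2 fold change -3.20, SE 0.41, adjusted p = 0.0169). Plxna2, the receptor plexin-A2, had 18.9, 23.4 and 10.5 CPM in WT-dimtdT and 2.83, 2.82 and 3.27 CPM in AS-dimtdT, a log2 fold change of -2.60 (SE 0.46, adjusted p = 0.0222). Semaphorin and plexin of this pair were therefore both lower. Plxnd1 is a semaphorin receptor needed for vessel patterning. It had 372, 410.5 and 674 CPM in WT-dimtdT and 815, 755 and 840.2 CPM in AS-dimtdT. All AS libraries were above all WT libraries, but the log2 fold change of 0.70 (SE 0.23) did not pass by edgeR (adjusted p = 0.0999). It passed in 1 of 15 alternatives, without WT-dimtdT replicate 3 (log2 fold change 1.002, adjusted p = 0.0160).

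Robo4, the Robo receptor of endothelium that is known for barrier stability, had 22.8, 27.9 and 10.5 CPM in WT-dimtdT and 1.48, 2.90 and 7.66 CPM in AS-dimtdT. The AS libraries spread widely and AS-dimtdT replicate 3 came near the lowest WT library, and the log2 fold change of -2.39 (SE 0.62) did not pass by edgeR (adjusted p = 0.0511). It passed in 3 of 15 alternatives, namely DESeq2, all 12 libraries in one fit, and without WT-dimtdT replicate 3 (adjusted p = 0.0304). Unc5b, a netrin receptor of endothelial tip cells, was the lowest of the 10 in WT-dimtdT, with 65, 67 and 50 counts. In AS-dimtdT it had 25, 24 and 7 counts, and its log2 fold change was -1.87 (SE 0.53, adjusted p = 0.0648 by edgeR), which passed in 2 of 15 alternatives.

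The calls in the dim libraries rested on few libraries. With 1 library left out the log2 fold changes of the 9 lower genes stood between -3.64 (Efna1) and -1.49 (Unc5b). That of Plxnd1 stood between 0.55 and 1.002. Without AS-dimtdT replicate 1 and without AS-dimtdT replicate 3, 0 of the 10 genes passed (0 and 1 of all genes), and without AS-dimtdT replicate 2, WT-dimtdT replicate 2, 1 or 3 the number was 3, 4, 6 and 9 (484, 800, 786 and 1825 of all genes). In each of these 6 fits 9 genes were lower and Plxnd1 was higher. By edgeR 9 or 10 of the 10 had an unadjusted p under 0.05. Of all genes 2972 to 4538 did so in the same fits, and 26.3% with all 6 libraries. Marker lists moved with the same contrast. Of the 14 endothelial markers 10 fell and none rose (median log2 fold change -2.24), and their summed CPM was 3.90 times as high in WT as in AS, where the 7 genes that fell did so by 3.42-fold to 9.21-fold. All 13 proximal tubule markers had negative values and 8 fell (median -4.15), 2 of 6 podocyte markers fell, 0 of the 7 mesangial and mural markers tested passed, and of 19 leukocyte rows (Itgam has 2) 2 rose and none fell (median 0.35). WT-dimtdT replicate 3 had the lowest endothelial (758 CPM), proximal tubule (1540 CPM) and mesangial and mural (122 CPM) sums of its group. Its leukocyte (16348 CPM) and podocyte (1068 CPM) sums were the highest. This library was the lowest of WT-dimtdT for Efnb2, Efna1, Ephb4, Plxna2, Robo4 and Unc5b and the highest for Efnb1 and Plxnd1. A covariate for the proximal tubule markers left 0 of the 10 genes and 1 of all genes, and one for the leukocyte markers left 0 and 0. All 10 genes kept their direction in both fits. The log2 fold changes of the 9 lower genes ran from -3.46 (Sema6a) to -0.95 (Unc5b) with the first covariate and from -3.12 (Sema6a) to -0.93 (Robo4) with the second. Plxnd1 stood at 0.30 and 0.17. The sums of both covariate lists were separate between the genotypes in the dim libraries, so these fits cannot tell the markers from the genotype. How far the markers took part in the changes of the 10 genes was not tested.

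In the bright libraries none of the 10 genes passed the test of AS over WT. Of all 14396 genes tested 0.452% passed. By edgeR 0 of the 10 passed after adjustment, by DESeq2 0 passed as well (8.44% of all genes), and 2 of the 10 had an unadjusted p under 0.05, beside 21.8% of all genes. The median log2 fold change was 0.09 over the 10 genes and -0.03 over all genes. Unc5b had 39.0, 70.5 and 43.1 CPM in WT-brighttdT and 129, 87.2 and 76.2 CPM in AS-brighttdT. The groups did not overlap, which held for 2 of the 10 genes and for 24.7% of all genes tested, and the log2 fold change was 0.88 (SE 0.29, adjusted p = 0.126). Ephb4 had 117, 194 and 168 CPM in WT-brighttdT and 237, 211 and 313 CPM in AS-brighttdT, again with no overlap, and a log2 fold change of 0.60 (SE 0.23, adjusted p = 0.173). Its call passed in 1 of 15 alternatives, with the leukocyte markers as a covariate.

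The groups of the other 8 genes overlapped in the bright libraries. Their log2 fold changes lay between -0.35 (SE 0.27) for Sema6a, with 121, 251 and 165 CPM in WT-brighttdT and 121, 174 and 144 CPM in AS-brighttdT, and 0.24 (SE 0.24) for Sema3g, with 43.1, 41.0 and 64.3 CPM and 66.3, 60.9 and 57.1 CPM. Efnb2 had 363, 688 and 452 CPM in WT-brighttdT and 553, 611 and 588 CPM in AS-brighttdT. Its AS libraries were within the span of the WT ones, and a range of 2 SE around its log2 fold change ran from -0.31 to 0.63. Plxnd1 had 1254, 1799 and 2685 CPM in WT-brighttdT and 1809, 1758 and 2848 CPM in AS-brighttdT. Robo4 had 226, 326 and 300.7 CPM in WT-brighttdT and 315, 229 and 389 CPM in AS-brighttdT, and Plxna2 had 162, 289 and 228 CPM and 236, 231 and 282 CPM. In these 3 receptors WT-brighttdT replicate 1 was the lowest library. Efnb1 had 523, 464 and 737 CPM in WT-brighttdT and 585, 393 and 683 CPM in AS-brighttdT, and Efna1 had 127, 233 and 171 CPM and 157, 136 and 206 CPM. The ranges of 2 SE were -0.65 to 0.39 for Efnb1, -0.65 to 0.34 for Efna1, -0.88 to 0.18 for Sema6a, -0.24 to 0.72 for Sema3g, -0.52 to 0.70 for Plxnd1, -0.37 to 0.53 for Plxna2 and -0.40 to 0.53 for Robo4, all of which included 0. Those of Unc5b (0.31 to 1.45) and Ephb4 (0.13 to 1.07) did not. In the same libraries all 13 proximal tubule markers had negative values and none passed (median log2 fold change -2.51), and 0 of the 14 endothelial markers passed (median 0.39). All 6 podocyte markers had positive values, of which 0 passed by edgeR after adjustment and 5 had an unadjusted p under 0.05 (median 0.996). Their summed level was 96.2 to 199 CPM in WT-brighttdT and 252 to 420.1 CPM in AS-brighttdT, and that of the leukocyte markers was 64.0 to 109 and 134 to 175 CPM. Neither of these sums overlapped between the genotypes, while the endothelial, the proximal tubule, and the mesangial and mural sums did. The part of these lists in the values of the 10 genes was not tested.

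**Figure D3:**
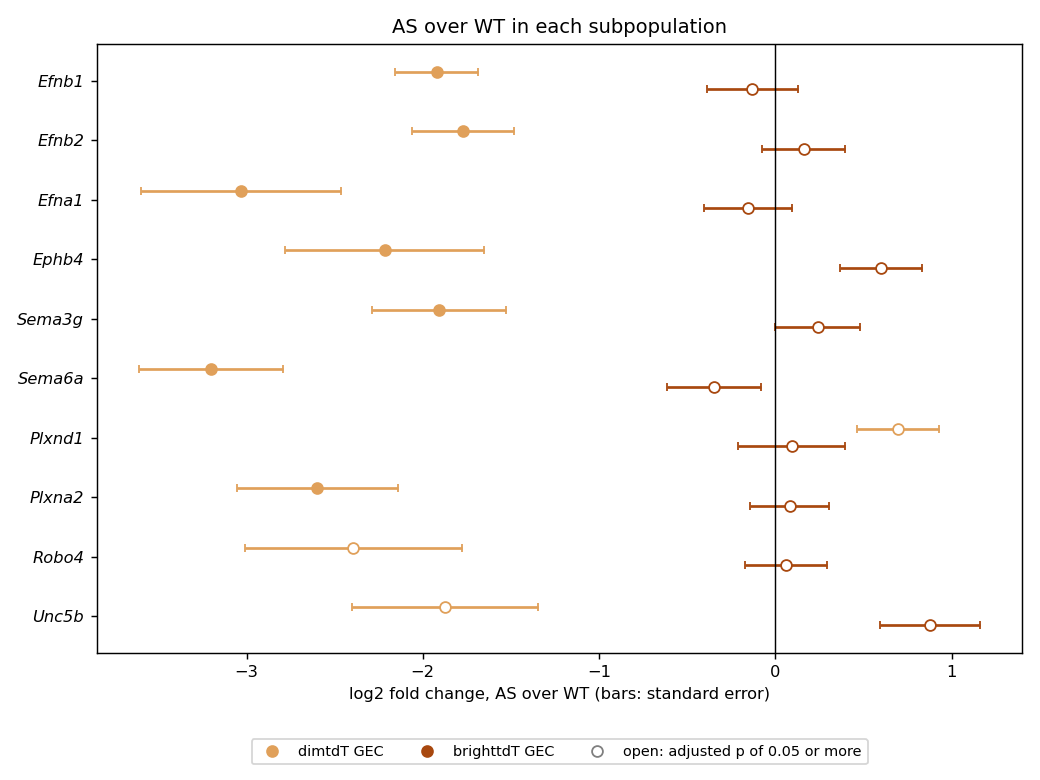
Log2 fold change of AS over WT (x axis) with its standard error (bars) for each gene (y axis) in the dim and the bright libraries. Filled points have an adjusted p under 0.05. In the dim libraries 9 genes lie between -3.20 and -1.77 and Plxnd1 at 0.70, and in the bright libraries all 10 lie between -0.35 and 0.88.

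The change of AS over WT differed between the bright and the dim libraries for 9 of the 10 genes. In the test of that difference across 15084 genes, 2.96% passed as higher in the bright libraries and 3.77% in either direction. The difference was largest for Efna1 (2.90 on the log2 scale, SE 0.57, adjusted p = 0.0144), Sema6a (2.88, SE 0.44, adjusted p = 0.00474) and Ephb4 (2.85, SE 0.54, adjusted p = 0.012). Unc5b (2.78), Plxna2 (2.71), Robo4 (2.49), Sema3g (2.19), Efnb2 (1.96) and Efnb1 (1.84) passed too. Plxnd1 had the opposite sign (-0.57, SE 0.42) and did not pass (adjusted p = 0.523). The median over all genes was 0.13, and 9 genes were above and 1 below 0 under each of 3 scalings. Robo4 passed narrowly (adjusted p = 0.0434). Without 1 library its adjusted p reached 0.120, and it passed in 6 of 18 alternatives, while Efna1 missed only without AS-dimtdT replicate 1 (adjusted p = 0.0519). With the mouse as a block, the same 9 genes passed and 877 of all genes did, compared with 569 without the block. In the test without the block, 11 of 14 endothelial markers (median 2.63) and 4 of 6 podocyte markers (median 2.55) were higher too. None of the leukocyte, mesangial and mural, or proximal tubule markers passed.

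Between subpopulations, 9 of the 10 genes were higher in WT-brighttdT than in WT-dimtdT, where 13.8% of 14247 genes passed as higher and 25.3% in either direction. All 10 were higher in AS-brighttdT than in AS-dimtdT, where 28.6% of 14052 genes passed as higher and 55.1% in either direction. The median log2 fold change was 3.36 over the 10 genes in WT and 6.13 in AS, beside -0.04 and 0.02 over all genes. The bright and dim libraries of all 10 genes did not overlap in either genotype, beside 41.8% of all genes tested in WT and 62.2% in AS. The folds in WT were largest for 7 genes. Robo4 (14.4-fold), Ephb4 (13.4-fold), Plxna2 (13.2-fold), Efnb2 (12.2-fold), Sema6a (10.4-fold), Efna1 (10.2-fold) and Unc5b (10.1-fold) were 10.1-fold to 14.4-fold higher in the bright libraries. Plxnd1 was 4.05-fold higher (log2 fold change 2.02, SE 0.35, adjusted p = 0.00302) and Efnb1 3.26-fold higher (1.70, SE 0.27, adjusted p = 0.00189). Sema3g had 49.5 ± 12.9 CPM in WT-brighttdT and 27.8 ± 10.2 CPM in WT-dimtdT (SD, n = 3), groups that did not overlap, and a log2 fold change of 0.87 (SE 0.37) that did not pass (adjusted p = 0.117), nor in any of 12 alternatives.

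In AS the same 7 genes stood apart with 46.0-fold to 92.9-fold higher levels in the bright libraries: Ephb4 (92.9-fold), Plxna2 (83.3-fold), Robo4 (77.7-fold), Sema6a (73.9-fold), Efna1 (73.5-fold), Unc5b (66.6-fold) and Efnb2 (46.0-fold). Efnb1 followed at 11.2-fold (log2 fold change 3.48, SE 0.25), Sema3g at 8.03-fold (3.01, SE 0.23) and Plxnd1 at 2.64-fold (1.40, SE 0.22, adjusted p = 0.0004). The 7 genes stood above Efnb1, Sema3g and Plxnd1 in both genotypes, a split that was read from these same folds. Among Efnb1, Sema3g and Plxnd1 the order differed, with Plxnd1 highest in WT and lowest in AS. The endothelial markers were called higher in 13 of 14 cases in WT (median 3.67) and in 14 of 14 in AS (median 6.24), and the 13 leukocyte markers in both tables were all called lower in WT (median -7.49) and in AS (median -7.70). Of the 8 mesangial and mural markers tested, 4 were called higher in WT (median 2.32) and all 8 in AS (median 3.28). Of the 6 podocyte markers, 5 were called lower in WT (median -2.18), and 3 higher and 1 lower in AS (median 0.67). None of 13 proximal tubule markers passed in WT (median -1.27), and 1 of 11 was called higher in AS (median 0.45). The part of these lists in the changes of the 10 genes was not tested. With the mouse as a block, the calls of the 10 genes in either genotype were unchanged.

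**Figure D4:**
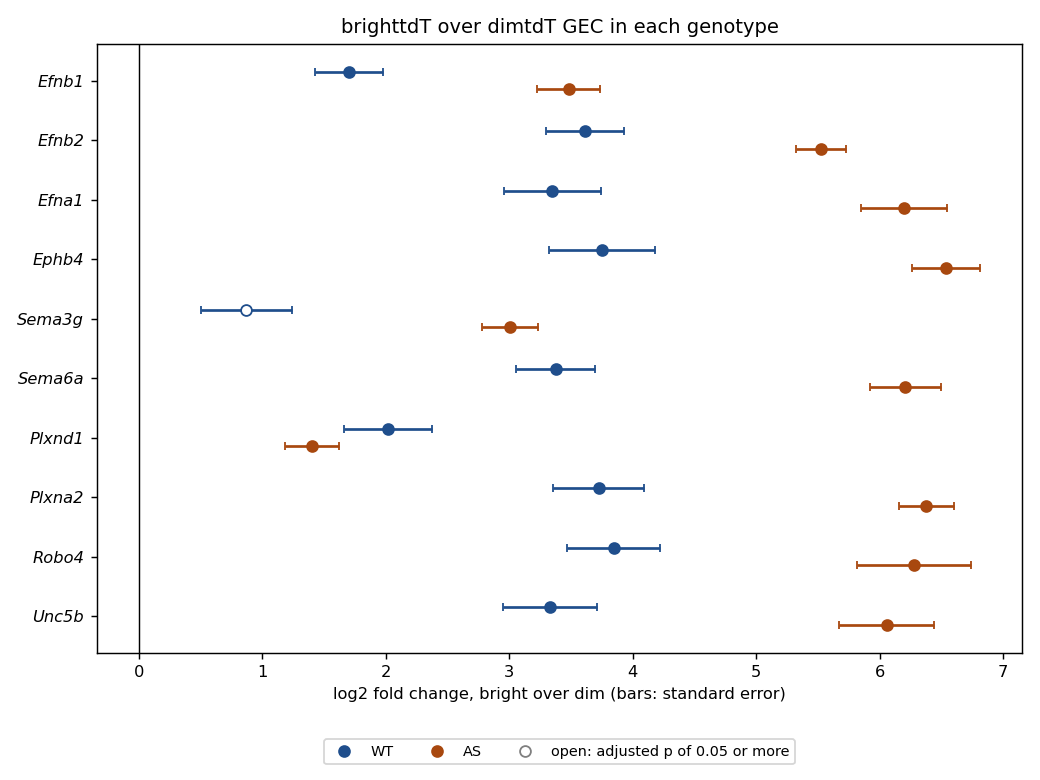
Log2 fold change of bright over dim libraries (x axis) with its standard error (bars) for each gene (y axis) in WT and AS. Filled points have an adjusted p under 0.05. In all, 7 genes lie between 3.33 and 3.85 in WT and between 5.52 and 6.54 in AS, whereas Efnb1, Sema3g and Plxnd1 lie lower in both, and Plxnd1 alone lies lower in AS (1.40) than in WT (2.02).

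Because the endothelial markers moved in the same direction, each gene was also expressed per 1000 CPM of the summed endothelial markers of its own library, a measure added after the values were seen and given as a description without a test. On this scale 7 of the 10 genes overlapped between AS-dimtdT and WT-dimtdT and 3 did not, where the groups of 76.1% of all genes did not overlap. In AS over WT of the bright libraries 3 of the 10 did not overlap, beside 22.7% of all genes. Between bright and dim libraries 3 of the 10 did not overlap in WT and 4 in AS, beside 89.4% and 95.2% of all genes. Efnb2 stood at 38.4 ± 5.44 in WT-dimtdT, 45.3 ± 14.6 in AS-dimtdT, 34.8 ± 5.40 in WT-brighttdT and 33.7 ± 4.20 in AS-brighttdT (SD, n = 3), and its groups overlapped in all 4 comparisons. Robo4 was at 17.5 ± 3.31, 13.2 ± 9.31, 20.1 ± 0.622 and 17.9 ± 5.28 in the same order, and Ephb4 at 10.4 ± 3.08, 9.67 ± 3.73, 11.2 ± 0.454 and 14.7 ± 3.88. Robo4 also overlapped in all 4 comparisons, and Ephb4 in 3, being higher in AS-brighttdT than in WT-brighttdT with no overlap. Unc5b was likewise higher in AS-brighttdT (5.52 ± 1.07) than in WT-brighttdT (3.55 ± 0.640) with no overlap. Sema6a and Plxna2 remained lower in AS-dimtdT than in WT-dimtdT with no overlap, at 6.93 ± 2.32 against 16.9 ± 5.70 for Sema6a and 10.5 ± 1.49 against 15.4 ± 1.55 for Plxna2. Sema6a did so in the bright libraries too, at 8.47 ± 2.03 in AS and 12.4 ± 2.19 in WT. Efna1 had 7.87 ± 4.18 in AS-dimtdT and 15.5 ± 3.05 in WT-dimtdT, and 1 AS library overlapped.

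The other 3 genes were higher relative to the endothelial markers in the dim than in the bright libraries of both genotypes, with no overlap. Sema3g had 26.4 ± 11.8 in WT-dimtdT and 27.1 ± 7.75 in AS-dimtdT, but 3.57 ± 1.005 in WT-brighttdT and 3.52 ± 0.0833 in AS-brighttdT, so that it differed between the gates by 7.38 and 7.71 times and overlapped between the genotypes. Efnb1 had 181 ± 99.5 and 174 ± 40.6 in the dim groups and 41.7 ± 12.3 and 31.8 ± 9.29 in the bright groups. Plxnd1 had 496 ± 340.0 in WT-dimtdT, 2853 ± 556 in AS-dimtdT, 134 ± 41.0 in WT-brighttdT and 124 ± 43.5 in AS-brighttdT. It was the gene that differed between the genotypes in the dim libraries by the largest factor (5.75 times), with WT-dimtdT replicate 3 at 889 and the other 2 WT libraries at 304 and 296. The leukocyte sum was higher in AS-dimtdT (17908 to 20870 CPM) than in WT-dimtdT (9512 to 16348 CPM), and within WT-dimtdT it was highest in replicate 3. The podocyte sum was highest in that replicate too, but lower in AS-dimtdT (412 to 461 CPM) than in WT-dimtdT (466 to 1068 CPM). In the fit with the leukocyte covariate the log2 fold change of Plxnd1 was 0.17 (adjusted p = 0.810). With the proximal tubule covariate it was 0.30 (adjusted p = 0.987), compared with 0.70 without a covariate. The sums of both covariate lists were separate between the genotypes here, so these fits cannot tell the markers from the genotype. How far these markers took part in the level of Plxnd1 was not tested.

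**Figure D5:**
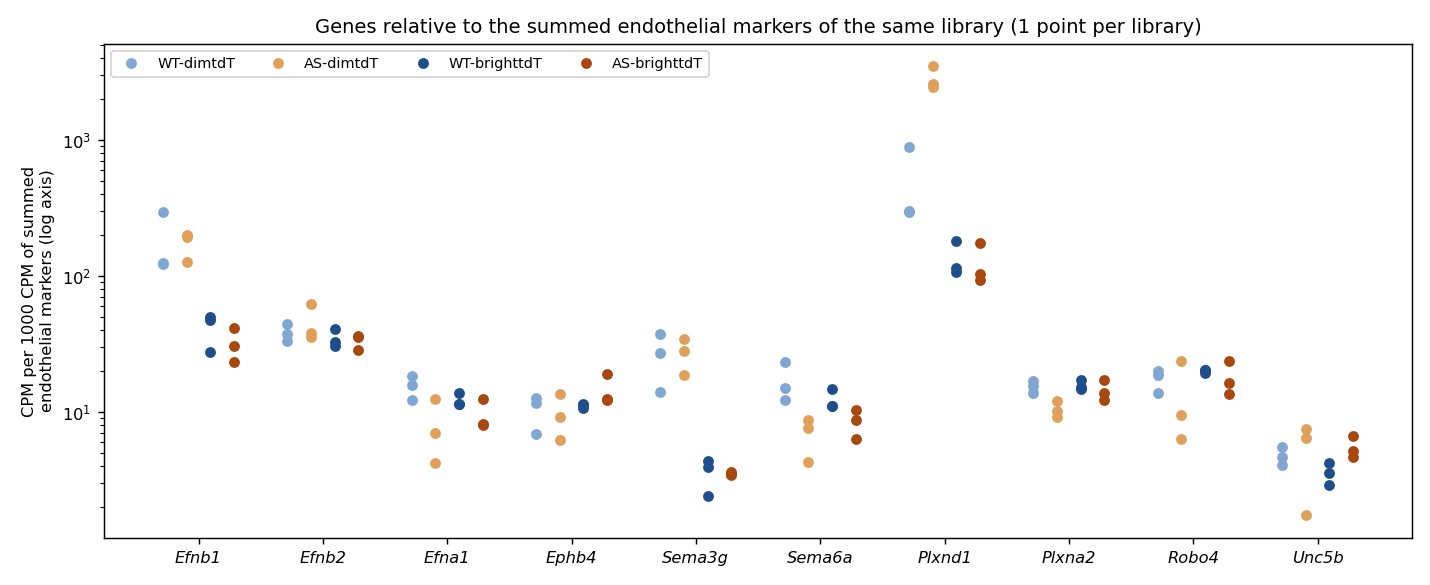
CPM of each gene (x axis) per 1000 CPM of the summed endothelial markers of the same library (y axis, log scale), 1 point per library, in the 4 groups. The points of Efnb2 and Robo4 overlap between groups, those of Sema3g and Efnb1 lie higher in the dim than in the bright libraries, and those of Plxnd1 in AS-dimtdT (2459.6 to 3489) lie above all others.

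The 10 genes were set beside 67 other genes of the ephrin, Eph, semaphorin, plexin, neuropilin, slit, Robo, netrin, Unc5, FLRT and RGM families. Of the 67, 50 were listed for the dim libraries and 39 were tested. In AS over WT 10 of the 39 fell and 2 rose, beside 6.42% and 2.21% of all genes tested, with a median log2 fold change of -1.11, beside -0.02 over all genes. By role, 4 of 13 semaphorins, 2 of 5 FLRT and RGM genes, 1 of 3 netrins, 1 of 2 netrin receptors, 1 of 5 Eph receptors and the 1 slit tested fell, and 1 semaphorin and 1 of 6 plexins rose. The largest changes were those of Slit2, a secreted ligand of Robo receptors (-3.48, SE 0.73), Ntn4, a netrin found in basement membranes (-3.19, SE 0.51), Sema4f, a transmembrane semaphorin (3.16, SE 0.68), Sema3b, a secreted semaphorin (-2.77, SE 0.68), and Flrt2, a ligand of Unc5 receptors (-2.61, SE 0.48). Slit2 had 6.30 ± 3.19 CPM in WT-dimtdT and 0.574 ± 0.499 CPM in AS-dimtdT (SD, n = 3), and Ntn4 16.5 ± 5.74 and 1.87 ± 0.642 CPM. Among the bright libraries 0 of 50 genes tested passed by edgeR, 5 by DESeq2, which called 8.44% of all genes, and 13 had an unadjusted p under 0.05, beside 21.8% of all genes. In the test of the difference between the gates 7 of 48 were higher in the bright libraries and 1 was lower, beside 2.96% and 0.815% of all genes. The 5 largest were those of Rgma (4.35, SE 1.05), Flrt2 (3.16, SE 0.56), Ntn4 (2.69, SE 0.47), Sema3f (2.44, SE 0.46) and Neo1, a receptor of netrins and RGM proteins (2.22, SE 0.43). The other 3, which fall outside the rule for named genes and were named after their values were seen, were Ephb1 (2.09, SE 0.48), Sema5a (2.06, SE 0.42) and Sema4a (-2.09, SE 0.51), the one that was lower.

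Between subpopulations, 22 of 46 such genes were higher and 3 lower in WT-brighttdT (median log2 fold change 1.38), beside 13.8% and 11.5% of all genes tested, and 31 of 45 were higher and 4 lower in AS-brighttdT (median 3.21), beside 28.6% and 26.5%. All Eph receptors that passed, 5 of 7 in WT and 7 of 8 in AS, and both neuropilins were higher in the bright libraries. Semaphorins were split, with 6 higher and 3 lower of 13 in WT and 6 higher and 2 lower of 12 in AS. Sema4d, a transmembrane semaphorin known from lymphocytes, had 361 ± 235 CPM in WT-dimtdT and 7.15 ± 2.91 CPM in WT-brighttdT (log2 fold change -5.60, SE 0.57) and 419 ± 11.8 and 4.03 ± 2.56 CPM in AS (-6.68, SE 0.36). Sema3f, a secreted semaphorin, had 1178 ± 529 CPM in AS-brighttdT and 16.9 ± 4.36 CPM in AS-dimtdT (6.10, SE 0.38). Sema6d reached a log2 fold change of 3.95 (SE 0.58) in WT and 6.07 (SE 0.41) in AS, the receptor Epha6 4.04 (SE 0.68) and 6.39 (SE 0.56), Sema4c 4.06 (SE 0.59) in WT and Ntn4 6.35 (SE 0.27) in AS. Unc5a, a netrin receptor, had 105, 104 and 92 counts in WT-brighttdT and 2, 1 and 2 in WT-dimtdT, a ratio of 46.9 per library size with an exact 95% counting interval of 19.9 to 146 that covers counting error only.

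Among 15074 genes, those whose log2 CPM followed each gene most closely over the 12 libraries were named by Pearson correlation, as a description. The libraries fall into a dim and a bright cluster and share their sort gates and mice, so that the values rest in large part on the step between the gates. Efnb2 was nearest to Prickle2 (r = 0.998) and Arhgef12 (0.997), Plxna2 to Dlc1 (0.998) and Fermt2 (0.998), Ephb4 to Ehd2 (0.996) and the endothelial cadherin Cdh5 (0.996), and Robo4 to Arhgef26 (0.996) and Dysf (0.996). Efna1 was nearest to Ltbp1 (0.996) and Wwc2 (0.995), Sema6a to Dab2ip (0.994) and Meis2 (0.993), Unc5b to Epn2 (0.993) and Sash1 (0.992), Efnb1 to Col18a1 (0.987) and Gne (0.986), and Sema3g to Mylk (0.981) and Galnt18 (0.979). Plxnd1 had the least close neighbours, Ccnj (0.968) and Rac1 (0.961). Among the 10 genes themselves r was 0.594 to 0.777 between Plxnd1 and the other 9 and 0.902 to 0.995 among those 9.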

How the data were processed

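RNA of 3 WT and 3 AS mice gave 1 dim and 1 bright library per mouse, prepared with a stranded poly-A kit. Per the submitters' processing notes and the methods, the authors trimmed reads, aligned them with STAR 2.6.0c to GRCm38.p5 with Gencode M16 and counted reads per gene. The deposited tables give raw counts per gene, RPKM values computed by the authors and a gene length. Their columns of fold changes, p-values and FDR of the authors' own comparisons were not used. The 92 ERCC spike-in rows of each table (0.0286% to 0.282% of counts) were left out.

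Counts were tested with edgeR 4.0.16 in R 4.3.3 (TMM, filterByExpr, glmQLFit, quasi-likelihood test, 2-sided, Benjamini-Hochberg adjustment over all genes tested, threshold 0.05), AS over WT within each table and bright over dim and their difference over genes in both tables. The fit was checked on simulated counts. CPM use TMM library sizes of the 12 libraries. Levels per kilobase divide CPM by merged exons of Gencode M21. The RPKM deposited by the authors served as an alternative. The gene length in the files equals the summed exons of all transcripts plus 1 base per exon.

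The 10 genes and the lists were chosen with earlier results of these data known. Of the wider list the 5 largest log2 fold changes among genes that passed with an average logCPM above 1 were named, and for each of the 10 genes the 2 nearest by correlation. Alternatives were RLE, library sizes alone, DESeq2 1.42.0, every gene with a count, marker covariates, all 12 libraries in one fit, blocks and each library left out. Fits of edgeR version 3 and merged exon lengths were added after seeing the data.

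Bright and dim libraries of the same animal number come from 1 mouse, and their deviations from group means correlated at 0.0796 to 0.385, compared with -0.286 to 0.189 for other mice of the genotype. Deviations within a group cancel out, so that these ranges are tied to each other and do not test the pairing. The reported fits do not pair the bright and dim libraries of a mouse, and the mouse as a block was an alternative. Replicates are separate mice, and libraries of a group differed by more than counting noise (chi-square over its degrees of freedom, 31.1 to 110.2). At 11440169 to 15074909 counts per library, Unc5b had as few as 7 counts, which limits its precision.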

Additional observations from a re-analysis of the deposited data

Results flagged for a closer look

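The results below were singled out because the change of AS over WT differed between the bright and the dim libraries by the interaction test of edgeR across all genes. For 9 of the 10 genes the difference (bright minus dim, log2) was 1.84 for Efnb1, 1.96 for Efnb2, 2.90 for Efna1, 2.85 for Ephb4, 2.19 for Sema3g, 2.88 for Sema6a, 2.71 for Plxna2, 2.49 for Robo4 and 2.78 for Unc5b, with adjusted p from 0.00474 to 0.0434. Plxnd1 did not pass (-0.57, adjusted p = 0.523). In the wider list it was 4.35 for Rgma, 3.16 for Flrt2, 2.69 for Ntn4, 2.44 for Sema3f and 2.22 for Neo1, with adjusted p from 0.00786 to 0.0306. It was also 2.09 for Ephb1 (adjusted p = 0.0292), 2.06 for Sema5a (adjusted p = 0.0160) and -2.09 for Sema4a (adjusted p = 0.0375), 3 genes named after their values were seen. Marker lists moved in the same contrast. Of the endothelial markers 11 of 14 were higher by the same test (median 2.63), and of the podocyte markers 4 of 6 (median 2.55). Of the leukocyte, mesangial and mural, and proximal tubule markers 0 passed by edgeR after adjustment, and 1 in each of these lists had an unadjusted p under 0.05. All 13 proximal tubule markers (median 1.78) and all 8 mesangial and mural markers (median 1.19) had positive values, as had 8 of the 13 leukocyte markers (median 0.17). The part of these lists in the differences was not tested.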

How the results depend on the processing

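Bright over dim kept the direction and the call of each of the 10 genes under all 12 alternatives in WT and in AS, and the calls in the difference between gates changed only for Robo4 and Efna1. AS over WT in the dim libraries kept its direction in all 15 alternatives for all 10 genes, but not its calls. Of the 10 genes 0 passed with the proximal tubule and 0 with the leukocyte covariate, where the 9 lower genes stood at log2 fold changes of -3.46 to -0.95 and -3.12 to -0.93, and between 0 and 9 with 1 library left out. By DESeq2 and with all 12 libraries in one fit 9 passed, Robo4 and Unc5b in addition. With the replicate block 5 passed, and Ephb4 and Sema3g missed. Ephb4 missed in 11 of 15 alternatives. Of the wider list (12 as reported) 7 passed with the fit of edgeR version 3, 6 with the replicate block, 0 with either covariate, and 0 to 16 with 1 library left out. Of all genes (1263) 2221 passed by DESeq2, 582 with edgeR version 3, 2106 with all 12 libraries, 1 and 0 with the covariates, 494 with the replicate block and 0 to 1825 with 1 library left out.

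In the bright libraries 1 of the 10 genes passed with the leukocyte covariate. Of the wider list 5 passed by DESeq2, 1 with all 12 libraries, 2 with the leukocyte covariate and 0 to 1 with 1 library left out. Of all genes (65) 1117 passed by DESeq2, 39 with every gene that had a count, 0 with edgeR version 3, 139 with all 12 libraries, 0 and 940 with the proximal tubule and leukocyte covariates, 16 with the replicate block and 0 to 281 with 1 library left out. Values that did not pass changed sign there. With the proximal tubule covariate Plxnd1 became -0.37, Plxna2 -0.19 and Robo4 -0.44, and with the leukocyte covariate Efna1 became 0.37 and Sema6a 0.077. With 1 library left out Efnb1 ranged from -0.33 to 0.072, Efna1 from -0.35 to 0.068, Plxnd1 from -0.18 to 0.39, Plxna2 from -0.084 to 0.27 and Robo4 from -0.15 to 0.25. In the difference between gates, 4 to 12 of the wider list (8) passed with 1 library left out. Of all genes (569) 1186 passed by DESeq2, 877 with the mouse as a block and 252 to 857 with 1 library left out. The cause of these shifts was not tested.

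AS and WT libraries share only replicate numbers, and deviations of same-numbered libraries correlated at -0.151 to 0.124, so that a block there pairs nothing known.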
